A study of Canis lupus familiaris with 48 samples.

Results

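The 3 genes described here, ENSCAFG00000006491, ENSCAFG00000015233 and ENSCAFG00000009926, were picked from a table of 32704 genes because their levels followed the passage number of the cells in earlier work on the same libraries. Their values by passage are therefore a description, and only the solute comparisons, which the choice did not use, are tested. The assay was RNA sequencing of MDCK I cells, an established line of canine kidney epithelium, after 144 h of culture of which the last 24 h were spent in 1 of 4 media. Control libraries came from regular medium at 300 mOsm; the other 3 groups had 200 mOsm of NaCl, raffinose or urea added, for 500 mOsm in all. Each group held 12 libraries, 1 at each of 12 passage labels between 1 and 19, and the same labels occur in every group. The study is titled as one of pathways and drug transporters under hyperosmotic stress; passage number was not its stated question. All libraries come from 1 line, the labels do not say how passage 1 is defined or whether the 4 libraries of a passage came from 1 culture, and p-values measure the spread between these libraries.

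A passage is 1 round of detaching and replating a cultured line, and the passage number counts such rounds from some starting stock. MDCK I is the strain of the line known for tight junctions with high electrical resistance, and it is used as a model of the renal collecting duct, whose cells meet large swings in osmolality. NaCl and raffinose, a trisaccharide, stay largely outside the cell and draw water out of it, whereas urea crosses membranes and raises osmolality with little lasting change in cell volume. The files give these genes by Ensembl identifier only, and the table at hand links 0 of them to a symbol, so no function, protein or sequence is stated for any gene, and epithelial or other cell markers were not analysed here. In such bulk libraries, fewer cells that express a gene and less RNA per cell cannot be told apart.

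On the dog genome build CanFam3.1, ENSCAFG00000006491 lies on chromosome 27 from 904661 to 926708 on the plus strand, with 30 exons and 6387 exonic bases. ENSCAFG00000009926 lies on the same chromosome, far from it, from 13280495 to 13420864 on the minus strand, with 52 exons and 7856 exonic bases. ENSCAFG00000015233 lies on chromosome 3 from 64230065 to 64362347 on the plus strand, with 26 exons and 3334 exonic bases after overlapping entries were merged. Each member overlaps 1 or 2 other annotated genes, and those 4 genes had 1 to 14 reads each over all 48 libraries, at most 0.0872% of the reads of the member they overlap.

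Libraries held 3.92 to 16.2 megareads counted, with a median of 10.5, and the shallowest was urea at passage 8. Levels are given as counts-per-million (CPM) of the library's reads in the 12654 tested genes, scaled by edgeR's TMM factors, and intervals cover counting error only. Summed over the 4 libraries of a passage, depth ran from 29.5 megareads at passage 8 to 52.6 at passage 11, with 46.3 at passage 1 and 51.8 at passage 19. The mitochondrial share of reads lay between 4.07% at passage 4 and 5.72% at passage 14. Passage 1 stood furthest apart: 249 of 12654 tested genes lay more than 2-fold from the median of the other 11 passages there, against 157, 142 and 129 at passages 19, 17 and 10 and 21 to 76 at the other 8. Slopes, ranks, variance shares and correlations of the members are therefore also given without passage 1.

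All 3 members passed the filter on low counts. Slopes with passage number came from edgeR's model of the counts, with a term for medium, and not from a straight line through log2 CPM. Over 48 libraries the slope, as log2 change per 10 passages, was 1.28 ± 0.21 (SE) for ENSCAFG00000006491. It was -1.30 ± 0.14 for ENSCAFG00000015233 and -1.56 ± 0.21 for ENSCAFG00000009926. These SEs treat the 48 libraries as separate although they share passages, so they understate the spread between passages. The same kind of model on the counts of the 12 summed passages gave slopes of 1.24, -1.30 and -1.49 in the same order. The median absolute slope of all tested genes was 0.085, and 38 genes reached 1. Ranked by absolute slope, the members were 13th, 8th and 4th of 12654 tested genes, and 4th, 2nd and 1st of the 10146 with a mean of at least 5 CPM. The gene with rank 3 among those 10146, ENSCAFG00000029966, had a slope of -1.28 at 18.2 CPM. Ranked by the SD of log2 CPM over the 12 passages, which takes no account of direction, they were 13th, 61st and 21st of all tested genes, so other genes varied more by this measure. A description as the 3 genes that vary most with passage is therefore borne out only in part: among genes of at least 5 CPM they take ranks 1, 2 and 4 by slope. ENSCAFG00000009926 reaches that minimum, with a mean of 6.58 CPM, through passage 1 and the NaCl and raffinose libraries; over the other 11 passages its mean was 4.25 CPM. Without passage 1 the ranks by absolute slope were 8, 20 and 578 of 12645 tested genes, in the order ENSCAFG00000006491, ENSCAFG00000015233 and ENSCAFG00000009926, and those by SD were 12, 109 and 254. Among the 10145 genes that then had at least 5 CPM, ENSCAFG00000006491 took rank 2 and ENSCAFG00000015233 rank 6 by absolute slope. ENSCAFG00000009926 was not among them. With the test of the slope over 48 libraries 16.2% of genes were called, and over 12 summed passages 0.0632%; these comparisons chose the members, and nothing is read from them here.

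**Figure D1:**
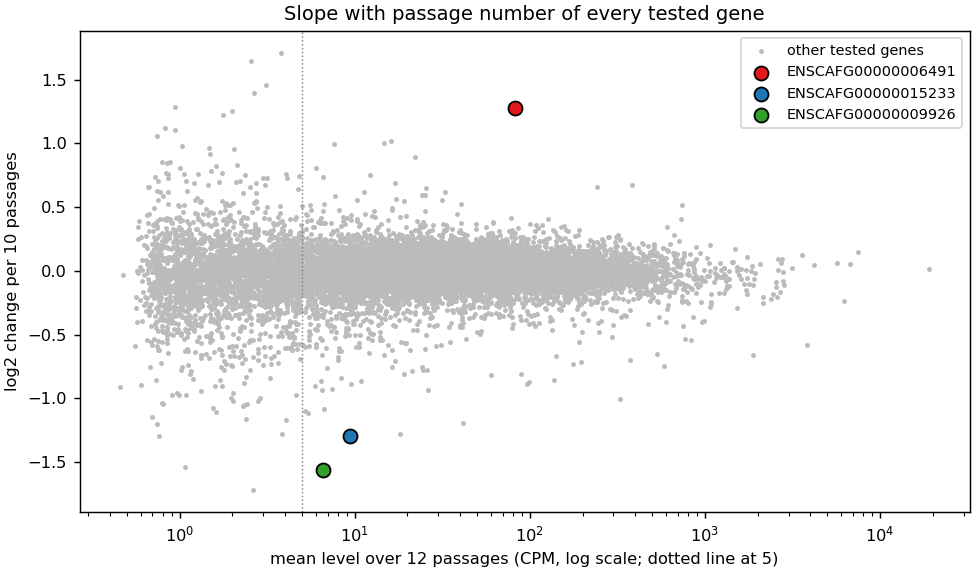
Log2 change per 10 passages (vertical axis) against mean level in CPM (horizontal log axis) for every tested gene, with the 3 members in colour and a dotted line at 5 CPM. Right of the line, ENSCAFG00000009926 and ENSCAFG00000015233 have the lowest slopes (-1.56 and -1.30) and ENSCAFG00000006491 the highest (1.28).

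ENSCAFG00000006491, the most abundant of the members, was low at early passages and high from passage 14 onward, with 2 passages out of order. Summed over the 4 libraries of a passage it stood at 25.5, 105 and 27.7 CPM at passages 1, 4 and 5. At passages 7, 8, 10 and 11 it was at 38.2, 37.9, 47.4 and 67.9 CPM. It dropped to its lowest level, 21.1 CPM, at passage 13, and stood at 111, 174, 166 and 163 CPM at passages 14, 16, 17 and 19. The highest passage was thus 8.25 times the lowest, and neighbouring passages 13 and 14 lay on opposite sides of the series.

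Part of that order was shared by all media. Control libraries ran from 6.83 CPM (passage 13) through a median of 27.6 to 95.4 (passage 16), and NaCl libraries from 26.9 (passage 13) through 79.9 to 247 (passage 16). Raffinose libraries ran from 38.8 (passage 13) through 98.1 to 293 (passage 16), and urea libraries from 12.6 (passage 13) through 25.7 to 114 (passage 17). Passage 13 was the lowest in all 4 groups, passages 11, 4 and 14 took ranks 7, 8 and 9 from below in all 4, and passages 16, 17 and 19 were the highest 3 in all 4. The remaining passages, 1, 5, 7, 8 and 10, took ranks 2 to 6 in an order that differed between media. Within single media the slope was lowest after raffinose, at 1.20, and highest after urea, at 1.34, with 1.27 in control and 1.31 after NaCl. Without passage 4 the pooled slope was 1.87, the highest value when 1 passage was left out.

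**Figure D2:**
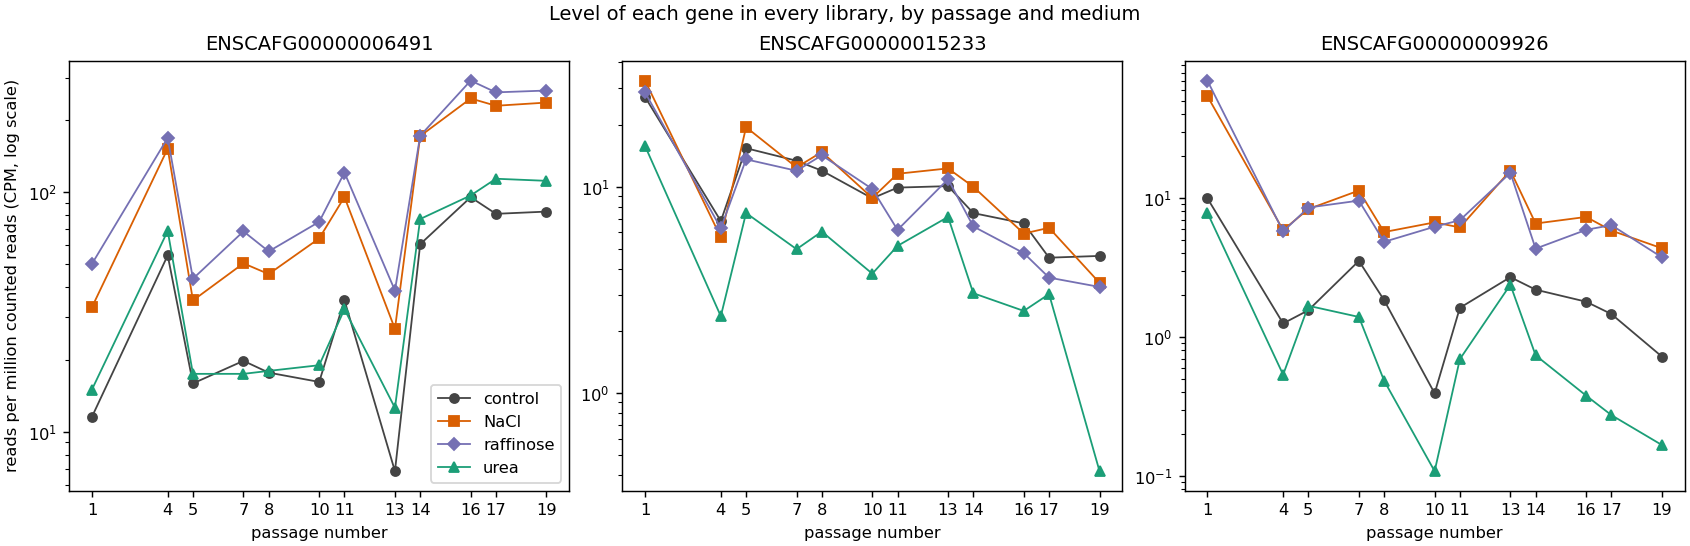
Level of each member in CPM (log axis) in all 48 libraries against passage number, with 1 line per medium. The 4 lines of ENSCAFG00000006491 share a peak at passage 4 and a trough at passage 13; the other 2 genes are highest at passage 1 in every medium.

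ENSCAFG00000015233 ran the other way, from its highest level at passage 1 to its lowest at passage 19. Summed by passage it stood at 25.5 CPM at passage 1, on 1123 reads. Passages 4, 5, 7 and 8 gave 5.47, 14.0, 10.8 and 12.8 CPM. From passage 10 on the values were 7.89, 8.12, 10.2 at passage 13, then 6.29, 4.83, 4.34 and, at passage 19, 3.12 CPM. The range was 8.17-fold, and passage 4 again fell out of order, this time as a low value between passages 1 and 5.

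By medium, ENSCAFG00000015233 ran in control from 4.53 CPM (passage 17) through a median of 9.34 to 27.2 (passage 1) and after NaCl from 3.42 (passage 19) through 10.8 to 32.7 (passage 1). After raffinose the values were 3.27 (passage 19), 8.08 and 28.6 (passage 1), and after urea 0.418 (passage 19), 4.38 and 15.7 (passage 1). Passage 1 was highest in all 4 groups and passage 19 lowest in 3, with passage 17 lowest in control. The urea library of passage 19 rests on 5 reads (95% exact Poisson interval 0.136 to 0.974 CPM) and stood apart from the next lowest urea library at 2.36 CPM. Slopes within media were -1.15 for control, -1.26 for NaCl, and -1.40 for both raffinose and urea. Without passage 1 the pooled slope was -1.004, and without passages 1 and 19 together it was -0.76.

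ENSCAFG00000009926 was set apart by passage 1 alone. Summed by passage it stood at 32.2 CPM there; the next passages in order were 13, 7 and 5, with 8.71, 6.61 and 5.00 CPM. The other 8 passages lay between 2.07 CPM at passage 19 and 3.94 at passage 8. The 15.6-fold range was the widest of the 3 members, but without passage 1 the slope was -0.37 in place of -1.56, and without passages 1 and 19 it was -0.08.

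In every medium the passage 1 library of ENSCAFG00000009926 was the highest: 9.96 CPM in control against a median of 1.71, 54.1 after NaCl against 6.62, 70.0 after raffinose against 6.30 and 7.83 after urea against 0.614. The lowest libraries were 0.393 CPM in control and 0.108 after urea, both at passage 10, and 4.35 after NaCl and 3.75 after raffinose, both at passage 19. Those 2 passage 10 libraries rest on 3 reads (95% exact Poisson interval 0.0811 to 1.15 CPM) and 1 read (0.00274 to 0.603 CPM), so their order within the group is uncertain. Passage 13 was second highest in 3 groups, and passage 7 took that place in control. The slope was steepest in the urea libraries, at -2.23, against -1.64 for raffinose, -1.37 for NaCl and -1.27 for control.

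For levels to be compared between genes they were divided by exonic length. In control, mean levels were 6.50 ± 5.00 CPM per kilobase (SD, n = 12) for ENSCAFG00000006491, 3.17 ± 1.86 for ENSCAFG00000015233 and 0.308 ± 0.320 for ENSCAFG00000009926. Per kilobase, ENSCAFG00000006491 exceeded ENSCAFG00000015233 in 37 of 48 libraries. All 4 passage 1 libraries were among the 11 exceptions, and 6 of the 11 were control libraries, at passages 1, 5, 7, 8, 10 and 13. ENSCAFG00000015233 exceeded ENSCAFG00000009926 per kilobase in 47 of 48 libraries.

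Passage and medium together left little variance in these genes. Of the variance of log2 CPM over 48 libraries, passage held 67.6% and medium 31.2% for ENSCAFG00000006491, with 1.25% left over. For ENSCAFG00000015233 passage held 66.3%, medium 25.7% and the rest 7.96%; for ENSCAFG00000009926 the shares were 33.5%, 61.4% and 5.09%. The medians over all tested genes were 20.01% for passage, 56.4% for medium and 20.3% for the rest. Once medium was taken out, passage held 98.2% of what remained for ENSCAFG00000006491, the second highest share of 12654 genes, 89.3% for ENSCAFG00000015233 (35th) and 86.8% for ENSCAFG00000009926 (55th). The median of this share over all tested genes was 49.5%. Without passage 1 the passage share was 67.2% for ENSCAFG00000006491, 56.2% for ENSCAFG00000015233 and 15.9% for ENSCAFG00000009926. Of what remained once medium was taken out, passage then held 98.1%, 84.3% and 71.1%, with ranks 1, 65 and 783. These shares use the passage differences that chose the members and are given as a description.

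**Figure D3:**
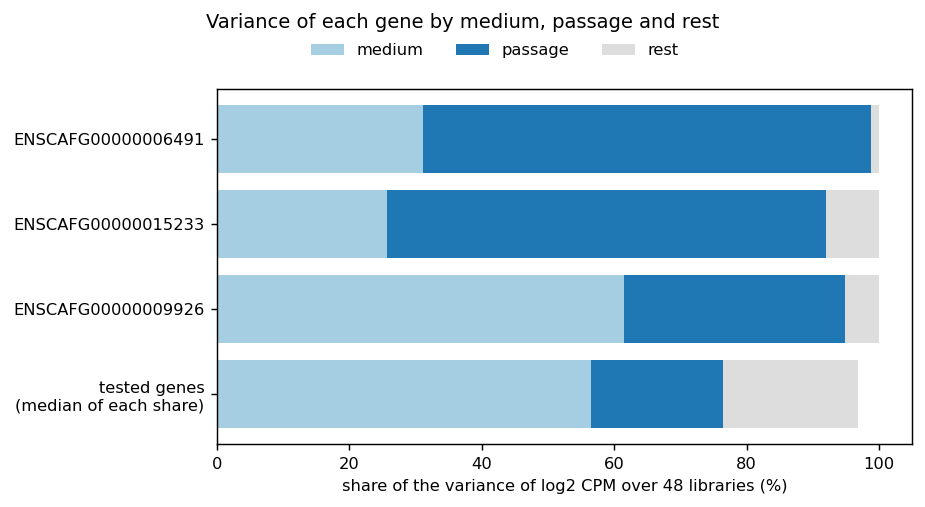
Stacked bars of the share (%) of each gene's log2 CPM variance over 48 libraries that lies between media, between passages and in neither, with the median of each share over tested genes at the bottom (these medians need not add up to 100%). Passage is the widest part for ENSCAFG00000006491 (67.6%) and ENSCAFG00000015233 (66.3%), and medium for ENSCAFG00000009926 (61.4%).

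Over the 12 summed passages, which share 1 cell line, ENSCAFG00000006491 ran against the other members, with Pearson r of -0.89 with ENSCAFG00000015233 and -0.71 with ENSCAFG00000009926, and the latter 2 ran together with r = 0.83. Since the members were picked for levels that followed passage number, these signs are not free of that choice and are given as a description. Over 48 libraries, after group means were removed, the values were -0.80, -0.54 and 0.74. Without passage 1 they were -0.91, -0.82 and 0.74 over 11 passages, and -0.79, -0.47 and 0.56 over 44 libraries. The slope of ENSCAFG00000009926 without passage 1 was -0.37.

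In the fit without a term for passage, NaCl and raffinose raised ENSCAFG00000006491 and ENSCAFG00000009926, and urea lowered ENSCAFG00000015233. The 3 solute groups are compared with the same 12 control libraries. NaCl called 2 of the 3 members, both higher, where 70.7% of all tested genes were called and 34.6% were called higher. Raffinose called the same 2, both higher, against 74.9% of genes called and 36.7% called higher. Urea called 1, lower, against 52.3% called and 24.9% called lower. The rest of the called genes, 36.1%, 38.2% and 27.4% of those tested, lay in the other direction. With so many genes called, the number of members called is not a result about them. Asking in addition for a change of at least 2-fold left the same members, 2, 2 and 1, against 17.7%, 22.2% and 7.52% of tested genes. NaCl and raffinose each called 3 of 3 members higher than urea, where 72.6% and 76% of genes were called, 35.7% and 37.6% higher than urea and 36.9% and 38.4% lower. At 2-fold or more these were 3 and 2 members, against 19.5% and 23.8% of genes. NaCl against raffinose called 0 of 3 members with edgeR, 0 of 3 at an unadjusted p under 0.05 and 0 of 3 with DESeq2; of all genes 15.4% were called, 7.42% higher with NaCl, 7.97% higher with raffinose and 0.514% at 2-fold or more. With passage as a block more of all genes and more members were called. Urea against control then called 3 of 3 members and 61% of genes, with ENSCAFG00000006491 higher and ENSCAFG00000015233 and ENSCAFG00000009926 lower after urea. NaCl against raffinose called 2 of 3 members and 28.4% of genes. The other comparisons kept their member counts with the block, namely 2 for NaCl and 2 for raffinose against control (76.5% and 79.6% of genes) and 3 each for NaCl and raffinose against urea (77.8% and 80.4%). Adjusted p-values are from edgeR's quasi-likelihood test with Benjamini-Hochberg adjustment over all tested genes, each group is given with n = 12, and the fit has no term for passage.

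ENSCAFG00000006491 stood at 41.5 ± 31.9 CPM (SD) in control, 116 ± 86.8 after NaCl and 135 ± 95.3 after raffinose. The groups overlapped: 6 of 12 NaCl and 6 of 12 raffinose libraries exceeded every control library, and the rest lay within the control range. The log2 fold change was 1.47 ± 0.45 (SE) for NaCl (edgeR adjusted p = 0.00332) and 1.69 ± 0.45 for raffinose (adjusted p = 0.000763). Against the control library of the same passage, it was higher in 12 of 12 passages for both solutes, by 2.22 to 3.98 times with NaCl and by 2.74 to 5.69 times with raffinose. The control level itself spanned 14.0-fold over the passages.

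After urea ENSCAFG00000006491 stood at 50.04 ± 40.7 CPM, with a log2 fold change of 0.27 ± 0.44 that did not pass (edgeR adjusted p = 0.637). With passage as a block, so that each library was set against those of its own passage, the same change was 0.25 ± 0.073 and passed (adjusted p = 0.00322), higher in 10 of 12 passages. Across solutes NaCl exceeded urea by 1.20 ± 0.44 (adjusted p = 0.0145) and raffinose exceeded urea by 1.42 ± 0.45 (adjusted p = 0.00384), each in 12 of 12 passages. NaCl lay below raffinose by -0.22 ± 0.43, which did not pass without the block (adjusted p = 0.783); with the block it was -0.29 ± 0.068 and passed (adjusted p = 0.00106), lower in 12 of 12 passages.

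**Figure D4:**
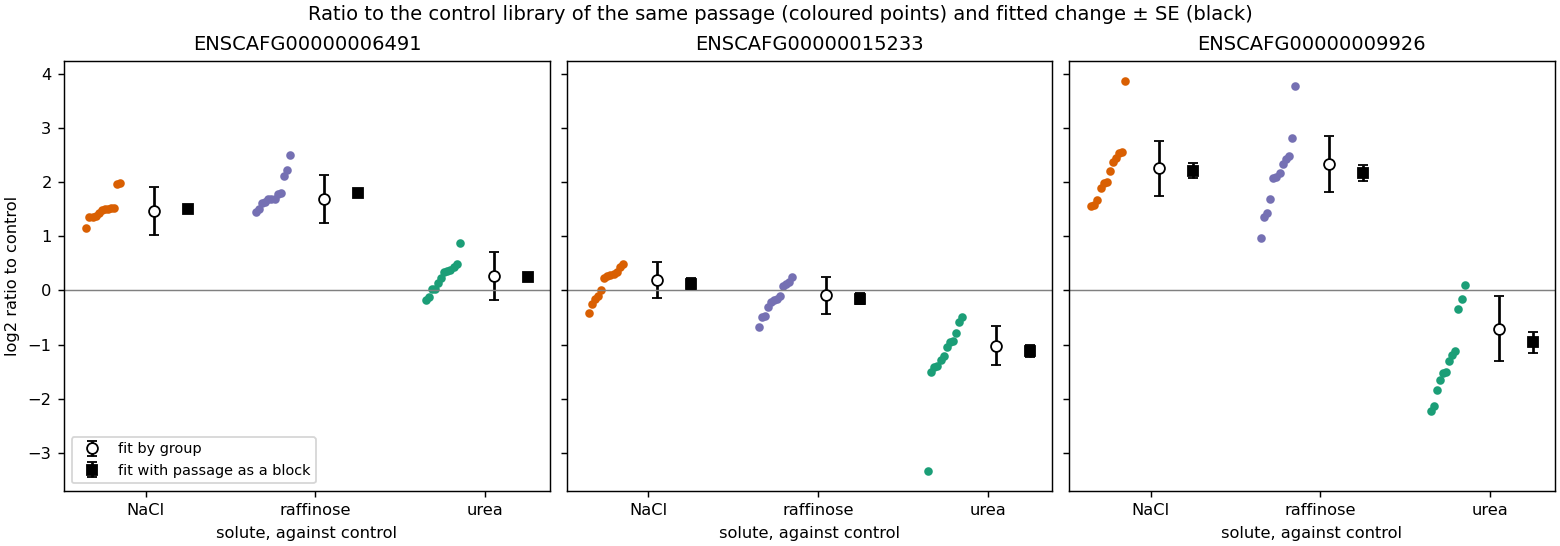
Log2 ratio to the control library of the same passage for each solute (coloured points, 12 passages), beside the fitted log2 fold change with SE from the fit by group (open circles) and from the fit with passage as a block (filled squares). For ENSCAFG00000006491 the SE for NaCl shrinks from 0.45 to 0.071 with the block, while the change stays near 1.5.

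ENSCAFG00000015233 stood at 10.6 ± 6.2 CPM in control and was lowest with urea, at 5.14 ± 3.9, beside 11.9 ± 7.9 with NaCl and 9.96 ± 7.0 with raffinose. For NaCl the log2 fold change was 0.19 ± 0.34 (edgeR adjusted p = 0.615) with 8 passages higher and 4 lower, and for raffinose -0.09 ± 0.34 (adjusted p = 0.821) with 4 higher and 8 lower. Urea lowered it by -1.02 ± 0.36 (adjusted p = 0.0138) and in 12 of 12 passages. The urea level lay between 0.0904 and 0.709 times that of the control library of the same passage, with the lowest ratio at passage 19, where urea had 5 reads. The median ratio was 0.458, and 6 of 12 urea libraries lay below every control library. It was also lower after urea than after NaCl (1.22 ± 0.35 as NaCl minus urea, adjusted p = 0.00207) and raffinose (0.93 ± 0.36, adjusted p = 0.0176), in 12 of 12 passages each. NaCl exceeded raffinose by 0.28 ± 0.34 (adjusted p = 0.63), and with passage as a block by 0.27 ± 0.11 (adjusted p = 0.0472), higher in 10 of 12 passages.

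ENSCAFG00000009926 rose most with NaCl and raffinose. It stood at 2.42 ± 2.5 CPM in control, 11.5 ± 13.8 after NaCl and 12.3 ± 18.4 after raffinose, with log2 fold changes of 2.25 ± 0.51 (edgeR adjusted p = 0.000111) and 2.34 ± 0.51 (adjusted p = 6.24e-05). Both were higher in 12 of 12 passages. The median ratio to the control library of the same passage was 4.39 for NaCl, with a range of 2.99 to 17.0, and 4.48 for raffinose, with a range of 1.97 to 15.8. Both highest ratios were at passage 10, where control had 3 reads (95% counting interval of the ratio 5.61 to 84.1 for NaCl and 5.18 to 78.6 for raffinose). In each of these groups the SD exceeded the mean, and passage 1 was the highest library. Without passage 1 the changes were 2.12 ± 0.28 and 2.03 ± 0.28, and both still passed. With DESeq2, which replaced the raffinose count of passage 1 as an outlier, the raffinose change was 1.51 (adjusted p = 0.00255).

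After urea ENSCAFG00000009926 stood at 1.39 ± 2.1 CPM, a log2 fold change of -0.71 ± 0.60 that did not pass (edgeR adjusted p = 0.331), although it was lower in 11 of 12 passages, passage 5 being the exception. With passage as a block it was -0.96 ± 0.19 and passed (adjusted p = 3.56e-05). Without passage 1 it was -1.12 ± 0.36 and passed without the block (adjusted p = 0.00746). The urea libraries held 1 to 104 reads of this gene, so single ratios are imprecise: at passage 17, with 3 reads after urea, the ratio was 0.187 (95% counting interval 0.0358 to 0.628). NaCl and raffinose exceeded urea by 2.96 ± 0.55 (adjusted p = 3.89e-06) and 3.05 ± 0.55 (adjusted p = 2.23e-06), in 12 of 12 passages each. They differed from each other by -0.08 ± 0.45 (adjusted p = 0.927), with NaCl higher in 8 passages and raffinose in 4.

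A different slope with passage in one medium than in control was not detected for any member. The slope of ENSCAFG00000006491 differed from that in control by 0.04 ± 0.61 per 10 passages with NaCl, -0.06 ± 0.60 with raffinose and 0.08 ± 0.61 with urea. For ENSCAFG00000015233 these differences were -0.10 ± 0.40, -0.24 ± 0.40 and -0.25 ± 0.42, and for ENSCAFG00000009926 -0.08 ± 0.68, -0.35 ± 0.64 and -1.03 ± 0.81. These SEs are from the fit without passage as a block, so they include the spread between passages that the media share. The joint test of the 3 differences gave an edgeR adjusted p of 1.00 for each member. Of all 12654 genes 0% were called jointly, 442 had an unadjusted p under 0.05, and DESeq2 called 0 genes for each solute slope against control. Of the members, 0 of 3 had an unadjusted p under 0.05. With passage as a block 0.0079% of genes were called for the raffinose slope, 0.103% were called jointly and none of the 3 members was, with an adjusted p of 0.866, 0.881 and 0.62. The block narrowed the difference for ENSCAFG00000009926 after urea to -0.74 ± 0.32 (adjusted p = 0.68), the 1 member slope with an unadjusted p under 0.05 (p = 0.0273 from edgeR), as had 881 of 12654 genes for that slope.

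The tested genes next to the members changed less over the passages than the members did. ENSCAFG00000006491 is the first tested gene of chromosome 27, and the next tested gene, ENSCAFG00000029158, starts 1274 bases beyond its end. That neighbour lay between 7.84 and 12.9 CPM over the passages, a 1.64-fold range with a slope of -0.18, beside 8.25-fold for the member. With NaCl, raffinose and urea its fitted log2 fold changes were 0.87, 0.75 and -0.34, beside 1.47, 1.69 and 0.27 for the member. The member's urea change did not pass in this fit, which has no term for passage.

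On chromosome 3, the tested gene before ENSCAFG00000015233, ENSCAFG00000015148, had a 1.44-fold range over passages and a slope of 0.13. The tested gene after it, ENSCAFG00000015272, had a 2.58-fold range and a slope of -0.31, with r = 0.64 with the member over 12 summed passages. Over 48 libraries with group means removed its r was 0.469, where 95% of genes with at least 1 CPM lay under 0.473. ENSCAFG00000009926 lies in a stretch with few expressed genes: the nearest tested gene before it, ENSCAFG00000009790, is 1476 kilobases away (1.67-fold range, slope -0.15, r = 0.79 with the member over 12 summed passages), and the nearest after it, ENSCAFG00000009975, is 115 kilobases away (2.98-fold, slope -0.24, at a mean of 0.953 CPM). Over 48 libraries the r of ENSCAFG00000009790 was 0.515, where 95% of genes lay under 0.510 with this member.

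Among the 10 annotated genes on each side, 5 were tested for ENSCAFG00000006491 (median slope -0.10), 9 for ENSCAFG00000015233 (0.07) and 1 for ENSCAFG00000009926 (-0.24). Over whole chromosomes, 314 tested genes of chromosome 27 had a median slope of -0.01 and 343 of chromosome 3 a median of 0.002, beside 0.003 for all tested genes. The 2 members on chromosome 27 had slopes of opposite sign.

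Genes elsewhere in the genome had profiles close to the members. Likeness was the Pearson correlation over 48 libraries after group means were removed, among 12177 genes with a mean of at least 1 CPM; it describes libraries that share a cell line and, by fours, a passage. For ENSCAFG00000006491 the closest were a pair on chromosome 2, ENSCAFG00000015945 (81490240 to 81499963, r = 0.89) and ENSCAFG00000023194 (80997853 to 81036942, r = 0.89). Both had their highest level at passage 16, at 23.6 and 190 CPM. With NaCl, raffinose and urea the first had log2 fold changes of 0.19, 0.15 and -0.20, which did not pass (edgeR adjusted p = 0.545, 0.62 and 0.565), and the second had -0.89, -0.93 and 1.12, beside 1.47, 1.69 and 0.27 for the member.

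For ENSCAFG00000015233 the closest were ENSCAFG00000008557 on chromosome 31 (21350912 to 21614337, r = 0.88) and ENSCAFG00000017357 on chromosome 4 (52649984 to 52733351, r = 0.87). The first is an abundant gene, with 1008 CPM at passage 1 and 306 CPM at passage 19. For ENSCAFG00000009926 they were ENSCAFG00000017820 on chromosome 30 (36974802 to 36990110, r = 0.87) and ENSCAFG00000017197 on chromosome 7 (42938442 to 42957434, r = 0.86), both highest at passage 1, at 59.3 and 59.9 CPM. For comparison, 95% of the 12177 genes had an r under 0.36, 0.47 and 0.51 with the 3 members in turn.

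The strongest relation of any member was a negative one. ENSCAFG00000013807, on chromosome X from 29675199 to 29706428, minus strand, with 3 exons, had r = -0.96 with ENSCAFG00000006491 over 48 libraries and -0.98 over the 12 summed passages. It was picked out with its values in view. It stood at 102 CPM at passage 13, where the member was lowest, and at 10.3 CPM at passage 16, where the member was highest. At passage 4 it was at 22.2 CPM, between 78.9 at passage 1 and 61.6 at passage 5, so it was out of order at the same passages in the opposite direction. With NaCl, raffinose and urea its fitted log2 fold changes were 1.09, 1.01 and 0.29, of the same sign as the member's 1.47, 1.69 and 0.27. Those of ENSCAFG00000013807 are given without SE or p-value, and the member's urea change did not pass in this fit without a term for passage.

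**Figure D5:**
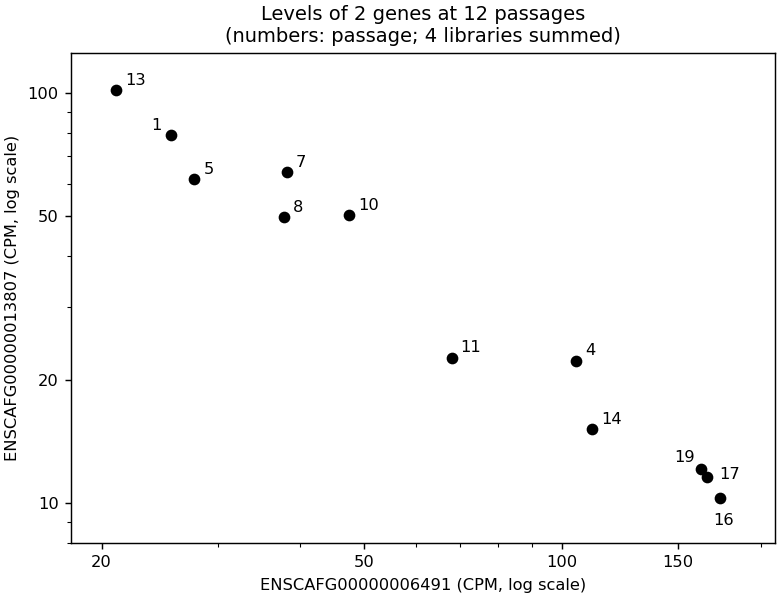
Level of ENSCAFG00000013807 against that of ENSCAFG00000006491 in CPM (both axes log), 1 point per passage with the 4 libraries of the passage summed and the passage number beside it. The points run from passage 13 (21.1 and 102 CPM) to passage 16 (174 and 10.3 CPM), with passage 4 among passages 11 and 14.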

How the data were processed

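Per the submitters' processing notes, CASAVA, HISAT2 2.0.5 and featureCounts 1.5.1 were used; per the labels, polyadenylated RNA was made into TruSeq version 2 libraries, which do not mark strand. The authors deposited raw read counts per gene, which per the file headers are unstranded and add up the exons of each gene in Ensembl release 87 (CanFam3.1). The recorded command sets nothing for reads with several matches. The 4 columns of passage 10 carry an added number of unknown meaning.

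Counts were fitted over all 48 libraries with edgeR 4.0.16 in R 4.3.3 (filterByExpr, 12654 genes kept; TMM factors; glmQLFit and glmQLFTest; common biological coefficient of variation 17.0%; threshold 0.05). SE is the log2 fold change over the square root of F. Log2 CPM used a pseudocount of 0.5 reads. The NaCl contrast and the NaCl slope difference, both without a block, were tried on simulated counts drawn independently for each library. That simulation held no passage effect shared by the media, so it does not cover the pairing by passage. Within groups, any 2 libraries differed beyond sampling noise (chi-square per gene at least 4.99). Passage labels pair libraries across groups: with group means removed, libraries of equal passage correlated at 0.28 on average (72 pairs, 66 over 0.1), and the other 792 pairs at -0.03. The members, lists and tests were chosen with earlier results of these data known. Genes named besides the members are the nearest tested gene on each side and the 2 most alike over 48 libraries; the next gene by slope and the most opposite gene were added after their values were seen. Alternatives were RLE factors, library totals only, no filter, genes of 5 CPM or more, DESeq2 1.42.0, passage as a block or linear term, only the 2 groups compared, passage ranks, summed passages, and passages or libraries left out.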

Additional observations from a re-analysis of the deposited data

How the results depend on the processing

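Across 33 results (18 solute comparisons, 12 of slopes between media and 3 slopes), 705 of 747 alternative values counted as unchanged. For comparisons that meant the same direction and call, and for joint tests the same call. The 3 slopes have no call, and there it meant a value closer to the main slope than the SD of the single-medium slopes. Of the rest, 16 were slopes that moved further with the same sign, 16 turned sign and 10 newly passed. RLE factors, library totals only, no filter, a mean of at least 5 CPM, a linear passage term, only the 2 groups compared and leaving out urea at passage 8 changed none, although totals only moved the median log2 fold change of all genes to -0.19 for NaCl, -0.25 for raffinose and -0.05 for urea. Those added after the data were seen are the last of these, the blocks without passages or libraries, and the ranks, variance shares and correlations without passage 1.

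With passage as a replicate block, 4 comparisons newly passed: ENSCAFG00000006491 for urea against control (0.25) and NaCl against raffinose (-0.29), ENSCAFG00000009926 for urea against control (-0.96) and ENSCAFG00000015233 for NaCl against raffinose (0.27). The same block without passages 1 and 19 gave 0.22, -0.27, -1.11 and 0.30, all still past the threshold, and no other member call changed with the block. Over all genes the block raised the calls for urea against control from 52.3% to 61% and for NaCl against raffinose from 1948 to 3595 genes (15.4% to 28.4%). Without passages 1 and 19 and with no block, ENSCAFG00000009926 for urea was -1.10 and passed.

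Signs turned only in differences that passed under no setting shown here. NaCl against raffinose in ENSCAFG00000009926 was 0.75 with DESeq2, 0.047 with the block, 0.099 with the block without passages 1 and 19, 0.086 without those passages and 0.093 without passage 1. DESeq2 had replaced the raffinose count of passage 1, 567 reads, by 33, and with that its raffinose change against control was 1.51 in place of 2.34. Slope differences from control that turned without passages 1 and 19 (value with the block second) were those of ENSCAFG00000006491 for raffinose (0.017 and 0.060) and of ENSCAFG00000015233 for NaCl (0.10 and 0.20) and urea (0.27 and 0.33). The last was 0.0037 with the block without urea at passage 19.

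Slopes with passage were 1.171 for ENSCAFG00000006491 with passage ranks, 1.20 in raffinose alone and 1.13 without passages 1 and 19. For ENSCAFG00000015233 they were -1.15 in control alone and -0.76 without both passages, and for ENSCAFG00000009926 -2.23 in urea alone and -0.078 without both.

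Leaving out 1 passage at a time gave slopes of 1.16 to 1.87 for ENSCAFG00000006491 (without passages 16 and 4), -1.51 to -1.004 for ENSCAFG00000015233 (without 4 and 1) and -1.75 to -0.37 for ENSCAFG00000009926 (without 4 and 1). The urea change of ENSCAFG00000009926 ran from -1.12 (without passage 1) to -0.64, and its NaCl against raffinose difference from -0.11 to 0.093. Slope differences from control ran from -0.20 to 0.014 for ENSCAFG00000006491 with raffinose, from -0.18 to 0.091 and -0.46 to 0.052 for ENSCAFG00000009926 with NaCl and raffinose, and from -0.19 to 0.017 for ENSCAFG00000015233 with NaCl. The cause was not tested for any of these. Counts of 1 to 5 reads in urea limit the precision of single libraries of ENSCAFG00000009926 and ENSCAFG00000015233.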
